A study of Mus musculus with 12 samples.

Results

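Gene expression was compared between NIH3T3 cells that had received either of 2 siRNAs against UBF, named oligo 1 and oligo 2. NIH3T3 is an established line of immortalised mouse fibroblasts. The comparison takes 6 of the 12 arrays of the series, 3 for each siRNA, chosen by the arrays' titles, and it runs across 19938 genes. The other 6 arrays are controls: 3 of cells given the transfection reagent Dharmafect 2 with no siRNA (Mock) and 3 of cells given the same reagent with an siRNA named for EGFP (sirEGFP). Every siRNA was used at 40 nM and total RNA was taken at 48 h in all 4 groups, which differ in the siRNA only. The labels give no clone or passage of the line and no sequence of either UBF siRNA. The comparison asks how cells differ when 2 siRNAs lower the same transcript by alike amounts.

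UBF is the product of Ubtf. It is a protein of the nucleolus with several HMG boxes, binds the ribosomal RNA genes and, with SL1, recruits RNA polymerase I (Pol I). A small interfering RNA guides the Argonaute complex to transcripts that match it. Its seed, the bases near the 5′ end of the guide, can also pair with other transcripts, and so 2 siRNAs of unlike sequence against 1 target are commonly used side by side. Synthesis of ribosomal RNA is coupled in proliferating cells to growth, to p53 and to entry into S phase.

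Levels are log2 expression values, so a difference of 1 is a 2-fold change, and each gene is read by 1 probe set. A gene was called where limma gave an adjusted p under 0.05 for oligo 2 minus oligo 1, in a fit of all 12 arrays with Benjamini-Hochberg adjustment over the 19938 genes. Array medians lay between 5.38 and 5.54. Pearson's r across genes was 0.980 to 0.992 between oligo 1 arrays, 0.991 to 0.994 between oligo 2 arrays and 0.982 to 0.991 between arrays of the 2 siRNAs. The median SD of a gene within a group was 0.168 with oligo 1, 0.144 with oligo 2, 0.144 in Mock and 0.155 with sirEGFP. Oligo 1 arrays 1 and 2 stood apart from each other, at opposite ends of the axis that held 41.5% of the variance within groups. Of 16 fibroblast markers measured, 15 lay above the median gene in mean level over the 12 arrays, Lum (lumican) being the exception. The same held for 1 of 14 epithelial, 1 of 12 endothelial, 3 of 14 adipocyte, 4 of 16 macrophage and 7 of 16 skeletal muscle markers, though probe sets differ in response.

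Ubtf itself was alike with both siRNAs, as the choice of the comparison set out. On the oligo 1 arrays it stood at 7.998, 7.74 and 7.64 and on the oligo 2 arrays at 7.90, 7.83 and 7.49, so the groups overlapped. All of these values lay below the lowest control array, at 8.04. The difference of oligo 2 minus oligo 1 was -0.052, with a 95% interval from -0.40 to 0.30. That interval allows a residual Ubtf level with oligo 2 that is either lower or higher than with oligo 1 by up to those amounts.

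The siRNAs nevertheless differed in 732 genes, or 3.67% of those tested. Of these, 459 were higher with oligo 2 (2.3% of all genes) and 273 were lower (1.37%), and 102 differed at least 2-fold (0.512%), 61 higher and 41 lower. The 3 arrays of one siRNA lay wholly beyond the 3 of the other in 730 of the 732 called genes, and in 18.3% of all genes. Calls and non-overlap were read from the same arrays, so the former count largely follows from the calling and lends it no support. The median difference over all genes was -0.03, the median size among called genes 0.69 and the smallest size called 0.38. The same fit called 493 genes (2.47%) for oligo 1 against sirEGFP and 451 (2.26%) for oligo 2 against sirEGFP, so the siRNAs differed from each other in more genes than either did from that control. Against Mock the counts were 549 (2.75%) and 848 (4.25%). These comparisons share arrays, and their counts are given side by side without a test. For sirEGFP against Mock limma called 0 genes, with 1247 at an unadjusted p under 0.05, against 2880 for the comparison of the 2 siRNAs.

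The number of calls depended on single arrays. It fell to 373 without oligo 1 array 3, to 451 without oligo 2 array 1, to 402 without oligo 2 array 2 and to 328 without oligo 2 array 3. With the replicate number as a block, 1094 genes were called, 669 higher and 425 lower.

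**Figure D1:**
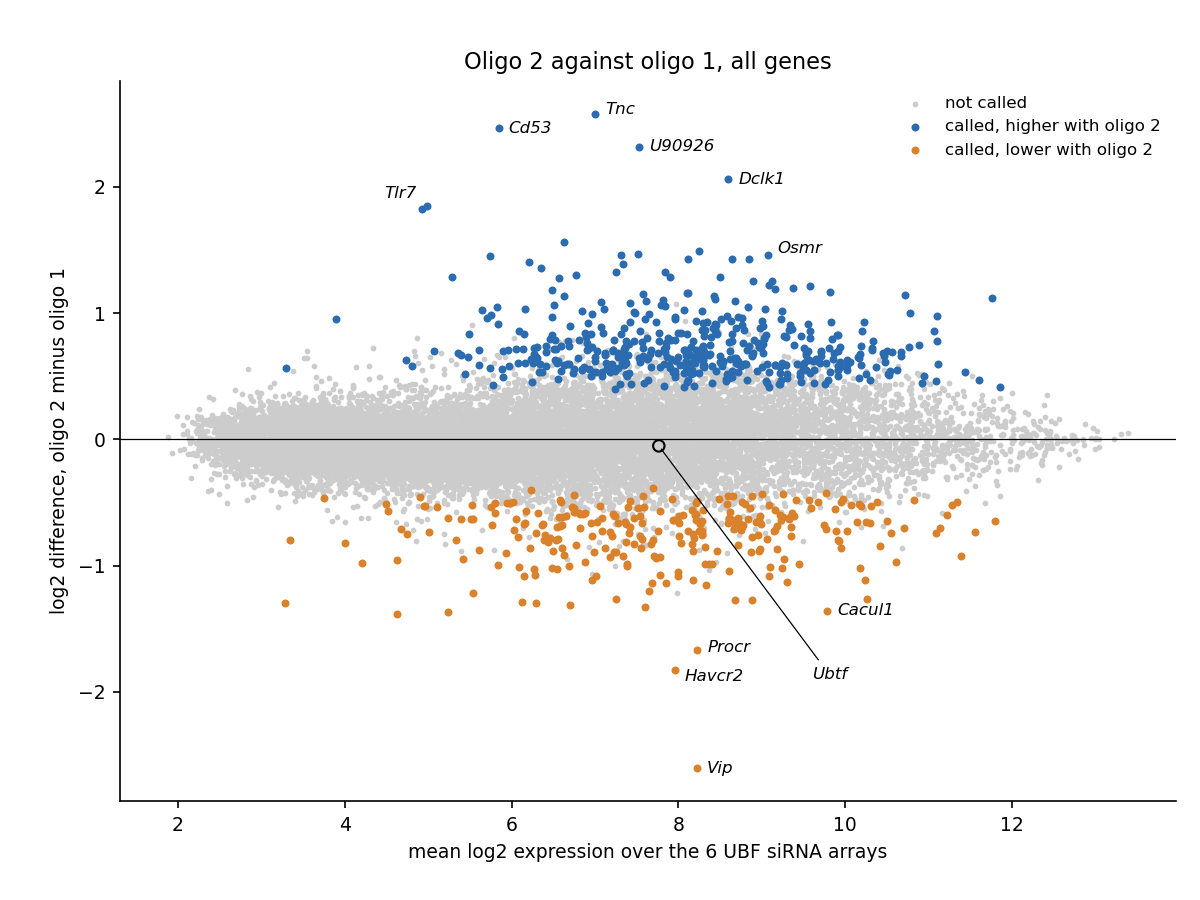
Each point is 1 of 19938 genes. The horizontal axis is the mean log2 expression over the 6 UBF siRNA arrays and the vertical axis the log2 difference of oligo 2 minus oligo 1. Blue points are the 459 genes called higher with oligo 2, orange points the 273 called lower and grey points genes not called. Ubtf, ringed, lies at -0.052, while Tnc reaches 2.58 and Vip -2.60.

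Where each siRNA stood relative to the 6 control arrays differed between called genes. In 315 of the 732, or 43.0%, the 3 oligo 2 arrays lay wholly beyond the 6 controls and the oligo 1 arrays did not. Of those, 199 were above the controls with oligo 2 and 116 below. In 249, or 34.0%, the oligo 1 arrays alone lay beyond the controls, and here 158 genes were below the controls with oligo 1 and 91 above. Over all genes the same 2 patterns held for 8.03% and 5.29%. Both siRNAs lay beyond the controls on the same side in 33 called genes (4.51%), on opposite sides in 40 (5.46%), and neither did in 95 (12.98%). Over all genes these shares were 2.12%, 0.216% and 84.35%. Since genes were called for a difference between the siRNAs on these arrays, their placement is not independent of the calling. Genes higher with oligo 2 were thus of more than one kind, among them raised with oligo 2, lowered with oligo 1, or both. In 51 of the 459 genes higher with oligo 2, neither siRNA lay beyond the controls.

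The genes highest with oligo 2 came mostly from the first kind. Tnc encodes tenascin-C, a matrix glycoprotein made in development and wound repair. It stood at 5.62, 5.82 and 5.70 with oligo 1 and at 7.71, 8.62 and 8.55 with oligo 2, against 5.25 to 5.91 on the controls. The difference was 2.58 ± 0.21 (SE, 3 arrays against 3), or 5.97-fold (limma adjusted p = 1.88e-05). Oligo 1 lay within the range of the controls, and all 3 oligo 2 arrays lay above every other array. Cd53, a tetraspanin best known from leukocytes, stood at 4.60, 4.50 and 4.74 with oligo 1 and at 7.01, 7.10 and 7.12 with oligo 2, a difference of 2.46 ± 0.21 (adjusted p = 2.73e-05). Dclk1, a kinase that binds microtubules, went from 7.88, 7.32 and 7.51 to 9.86, 9.41 and 9.62 (2.06 ± 0.19, adjusted p = 4.46e-05). Tlr7, the endosomal receptor for single-stranded RNA, stood at 4.24, 3.88 and 4.06 with oligo 1, where the highest control was 4.05. With oligo 2 it stood at 6.13, 5.87 and 5.72 (1.85 ± 0.15, adjusted p = 1.88e-05).

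Further genes of this kind were Ranbp3l (1.82 higher), Plpp3, which dephosphorylates lipid phosphates (1.47), and Serpinb6b, a serine protease inhibitor (1.46), with adjusted p of 0.000972, 0.00111 and 0.000506. Cd80, a costimulatory ligand of T cells, stood at 5.76, 5.62 and 6.16 with oligo 1 and at 7.07, 7.40 and 7.76 with oligo 2 (1.57 ± 0.21, adjusted p = 0.000972). Osmr, the receptor chain for oncostatin M, was above all 6 controls with both siRNAs and 1.46 ± 0.14 higher with oligo 2 (adjusted p = 6.91e-05). Its levels were 8.503, 8.213 and 8.304 with oligo 1, 9.91, 9.91 and 9.57 with oligo 2, and 7.45 to 8.08 on the controls.

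The other genes of the top 15 were placed otherwise or called less firmly. The transcript U90926 stood at 6.23, 6.61 and 6.28 with oligo 1, below controls that ran from 7.497 to 8.819, and at 8.49, 8.72 and 8.85 with oligo 2 (2.32 ± 0.16, adjusted p = 7.43e-06). Cenpq, a centromere protein, stood at 6.94, 8.08 and 7.49 with oligo 1 and at 8.87, 9.01 and 9.11 with oligo 2 (1.49 ± 0.22, adjusted p = 0.0017). The controls of Cenpq ran from 8.18 to 9.19, so oligo 2 lay within them. Slc7a11, the cystine and glutamate antiporter, stood at 5.498, 5.542 and 5.479 with oligo 1 and 6.89, 6.39 and 7.45 with oligo 2 (1.40 ± 0.25, adjusted p = 0.00617), on controls spread from 5.13 to 6.42. Nrn1, encoding the surface protein neuritin, and Atxn1, encoding ataxin 1, were each 1.43 higher, with oligo 2 above every control. The call of Nrn1 (adjusted p = 0.00842) was lost without oligo 2 array 3 (0.0531). That of Atxn1 (adjusted p = 0.0328) was lost without Mock array 1, without oligo 1 array 1 or 3, or without any of the oligo 2 arrays (0.0502 to 0.152).

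**Figure D2:**
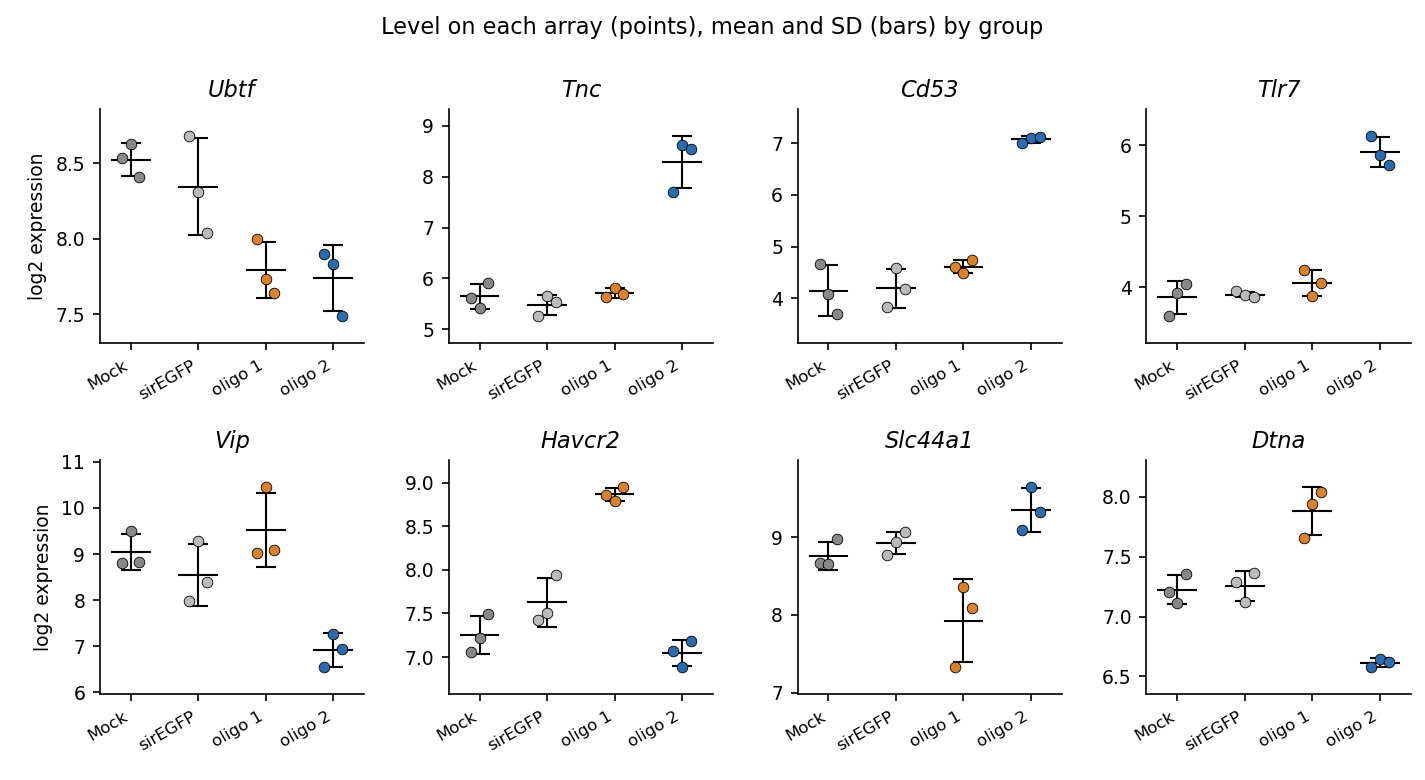
Points give the log2 expression of 8 genes on each of the 12 arrays, by group, with the group mean and SD as bars (3 arrays a group). Ubtf is low with both siRNAs. Tnc, Cd53 and Tlr7 are high with oligo 2 alone, Vip is low with oligo 2, Havcr2 is high with oligo 1, and Slc44a1 and Dtna have the siRNAs on opposite sides of the controls.

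Among genes lower with oligo 2, Vip, the precursor of vasoactive intestinal peptide, differed most. It stood at 9.03, 10.45 and 9.08 with oligo 1 and at 6.54, 7.27 and 6.93 with oligo 2, on controls from 7.97 to 9.51. The difference was -2.60 ± 0.37, or 6.08-fold (adjusted p = 0.00112), and oligo 2 lay below all other arrays. Several further genes shared this placement. Cacul1, a cullin-domain protein associated with CDK2, stood at 10.27, 10.70 and 10.43 with oligo 1 and at 9.01, 9.25 and 9.06 with oligo 2 (-1.36 ± 0.14, adjusted p = 0.000174). Myct1 stood at 7.33, 7.34 and 7.42 against 6.09, 5.86 and 6.19 (-1.31 ± 0.14, adjusted p = 0.00016). Bnip3, a mitochondrial protein of the BCL2 family that marks mitochondria for autophagy, stood at 9.48, 9.77 and 9.29 against 8.30, 8.35 and 8.07 (-1.27 ± 0.16, adjusted p = 0.00064). Tfrc, the transferrin receptor that brings iron into the cell, was 1.26 lower with oligo 2 on the log2 scale, as the difference of -1.26 ± 0.18 gives (adjusted p = 0.00122). Scg5, a neuroendocrine chaperone of secretory granules, differed by -1.32 (adjusted p = 0.000855).

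The remaining low genes were those raised with oligo 1. Havcr2, encoding the immune receptor TIM-3, stood at 8.86, 8.79 and 8.95 with oligo 1, above controls of 7.06 to 7.94, and at 7.07, 6.88 and 7.18 with oligo 2 (-1.82 ± 0.15, adjusted p = 2.41e-05). Ppef1, a calcium-binding phosphatase, stood at 5.176, 5.403 and 5.369 with oligo 1 against 4.04, 3.50 and 4.26 with oligo 2 (-1.38 ± 0.21, adjusted p = 0.0017). P2ry10b, of the purinergic receptor family, Insl6, an insulin-like peptide, and Kng2, a kininogen, were likewise above the controls with oligo 1 and within or across their range with oligo 2 (-1.36, -1.22 and -1.20, adjusted p = 0.00289, 0.00162 and 0.000414). Procr, the endothelial protein C receptor, stood at 9.72, 8.08 and 9.39 with oligo 1 and 7.75, 6.84 and 7.58 with oligo 2 (-1.67 ± 0.33, adjusted p = 0.0103). Its call was lost without oligo 1 array 3 or without oligo 2 array 2 (both 0.061). Hmox1, heme oxygenase 1, stood at 9.65, 8.61 and 9.68 against 8.34, 7.41 and 8.38 (-1.27 ± 0.32, adjusted p = 0.037). Its call was lost without Mock array 3, without oligo 1 array 1 or 3, or without any oligo 2 array (0.0551 to 0.17). Of the 15 highest and 15 lowest genes, 26 stayed called without each of the 12 arrays in turn, the exceptions being Nrn1, Atxn1, Procr and Hmox1.

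In 40 called genes (0.201% of all genes) the siRNAs lay on opposite sides of all 6 controls, as they did in 43 of all genes (0.216%). Of the 40, 25 had oligo 2 above the controls and 15 below. Slc44a1, a choline transporter, stood at 7.33, 8.35 and 8.09 with oligo 1 and at 9.09, 9.64 and 9.32 with oligo 2, on controls from 8.65 to 9.06 (1.43 ± 0.22, adjusted p = 0.00181). Its lowest oligo 2 array was only just above the highest control. Snai2, a zinc finger repressor that drives mesenchymal identity, stood at 8.96, 9.41 and 9.33 against 10.35, 10.5 and 10.36 (1.17 ± 0.15, adjusted p = 0.000771). Its highest oligo 1 array, at 9.409, was only just below the lowest control, at 9.445. Larp7, which holds the 7SK RNA, stood at 8.31, 8.82 and 8.58 against 9.72, 9.88 and 9.67 (1.19 ± 0.13, adjusted p = 0.000362). Its controls ran from 9.347 to 9.659, so its lowest oligo 2 array, at 9.67, was barely above them. Adam17, the protease that sheds TNF and many receptors, stood at 7.33, 7.64 and 7.61 against 8.74, 8.65 and 8.67 (1.16 ± 0.12, adjusted p = 0.000185).

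Of the 6 most different, Dtna and Lyz2 were lower with oligo 2. Dtna, encoding dystrobrevin alpha of the dystrophin complex, stood at 7.66, 7.94 and 8.04 with oligo 1 and at 6.58, 6.65 and 6.62 with oligo 2, on controls of 7.11 to 7.36 (-1.26 ± 0.13, adjusted p = 9.71e-05). For Dtna each siRNA also differed from sirEGFP by itself, at 0.62 for oligo 1 (adjusted p = 0.0158) and -0.64 for oligo 2 (adjusted p = 0.0132). Lyz2, lysozyme 2, stood at 6.94, 6.70 and 6.66 against 5.72, 5.07 and 5.66 (-1.29 ± 0.19, adjusted p = 0.00145). Neither siRNA passed against sirEGFP for Lyz2 (adjusted p = 0.083 and 0.119). Against sirEGFP, oligo 1 passed and oligo 2 did not for Slc44a1 (adjusted p = 0.0234 and 0.4495), Larp7 (0.00147 and 0.679) and Adam17 (0.00541 and 0.107), while Snai2 passed with oligo 2 only (0.411 and 0.00551).

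**Figure D3:**
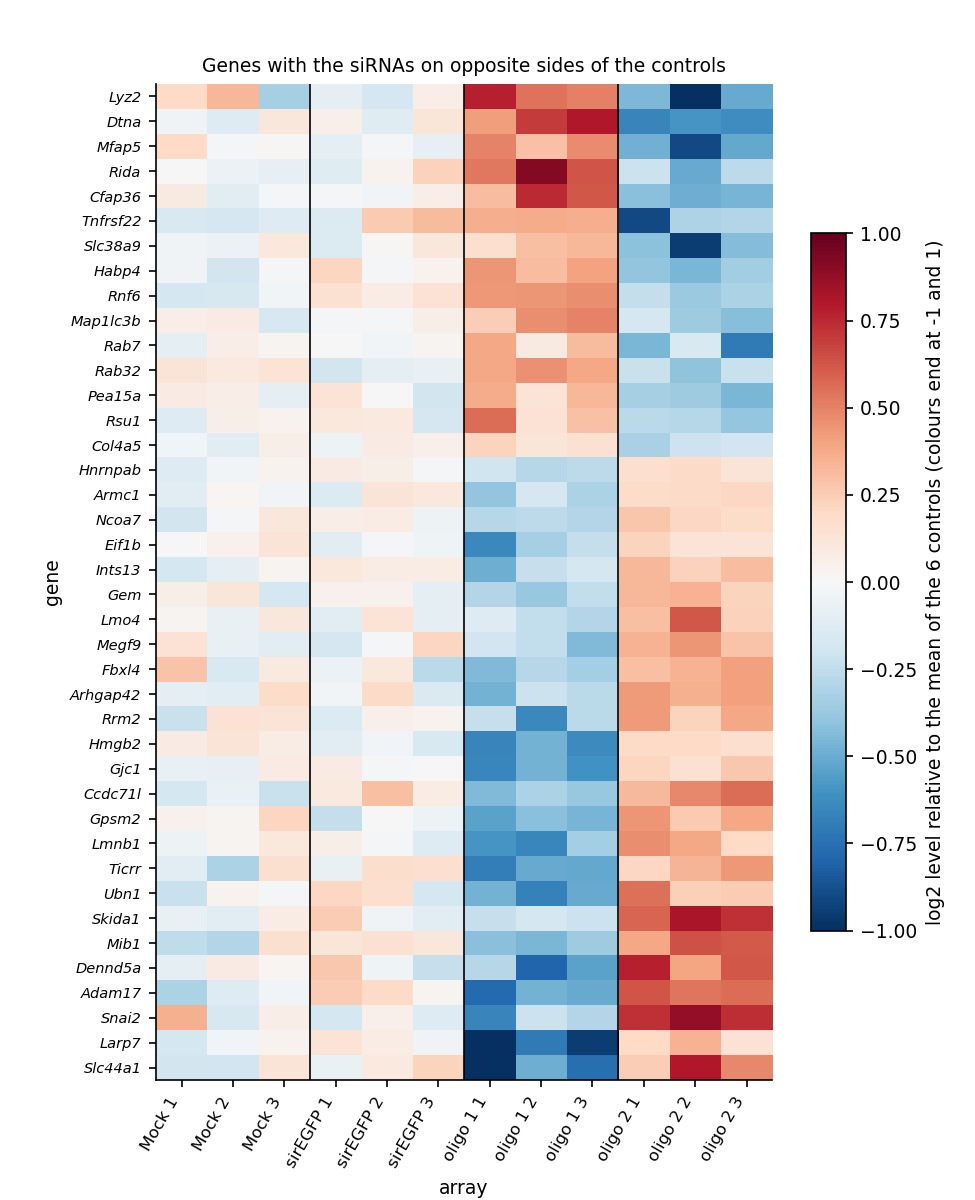
Rows are the 40 called genes whose siRNA arrays lie on opposite sides of all 6 control arrays, and columns are the 12 arrays. Colour gives the log2 level relative to the mean of the 6 controls, red above and blue below, with the colours ending at -1 and 1. The upper 15 genes are high with oligo 1 and low with oligo 2, the lower 25 the reverse, and the control columns are pale.

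The broadest pattern lay in the cell cycle. For this and the later lists, the share of all genes called was 3.67%, with 2.3% higher and 1.37% lower with oligo 2. Of 51 measured genes of G1/S and DNA replication, 20 were higher with oligo 2 and 0 lower (limma, with 33 and 0 at an unadjusted p under 0.05). The median difference of the list was 0.57 against -0.03 over all genes. Of 55 genes of G2/M and mitosis, 16 were higher and 0 lower (41 and 0 unadjusted), the median was 0.48, and all 55 differences were above 0. Against sirEGFP the median of the G1/S list was -0.50 with oligo 1 and 0.046 with oligo 2, and that of the G2/M list -0.65 and -0.096. Oligo 1 lay wholly below all 6 controls in 24 of the 51 and 39 of the 55 genes, against 3.22% of all genes. Oligo 2 did so in 3 and 7, against 3.85%. Against sirEGFP limma called 17 G1/S and 28 G2/M genes lower with oligo 1 (1.43% of all genes) and 1 and 1 with oligo 2 (0.742%), in comparisons that share the sirEGFP arrays. In RNA from whole cultures, fewer cells in a phase and less transcript per cell cannot be told apart.

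The array values of the lists separated the siRNAs. The mean level of the G1/S members relative to the controls was -0.29, -0.60 and -0.45 on the oligo 1 arrays and 0.15, -0.074 and -0.0028 on the oligo 2 arrays, and the controls ran from -0.15 to 0.13. That of the G2/M members was -0.69, -0.62 and -0.71 with oligo 1 and -0.24, -0.16 and -0.18 with oligo 2, with controls from -0.11 to 0.14. The counts of called members rested on single arrays more than these levels did. Without oligo 1 array 3, 13 G1/S and 5 G2/M genes were called higher. Without oligo 2 array 1 the G1/S count was 11, without oligo 2 array 2 the G2/M count was 7, and without oligo 2 array 3 the counts were 12 and 5.

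Many genes of these lists are controlled through short promoter elements. E2F factors bind GC-rich sites at genes of the G1/S transition, and the CHR element TTTGAA is bound by the DREAM and MuvB complexes at genes of G2/M, often near a CCAAT box of the factor NF-Y. Windows are shown for 2 called members of each list, to let these elements be seen in place. They were picked as examples, with no stated rule, and do not stand for their lists. Each runs from 250 bases before to 50 after the RefSeq start, 5′ to 3′ on the gene's strand, in assembly GRCm38.p6. Capitals mark matches on either strand to an E2F site (TTTCCCGC, TTTCGCGC, TTTGCCGC or TTTGGCGC), to the CHR (TTTGAA, or TTCAAA on the other strand) or to CCAAT (or ATTGG). No matches overlap in these windows. Dtl lies at chr1:191575495-191575794 on the minus strand, Rfc3 at chr5:151651159-151651458 on the minus strand, Kif11 at chr19:37376132-37376431 on the plus strand and Bub1b at chr2:118597961-118598260 on the plus strand.
Dtl: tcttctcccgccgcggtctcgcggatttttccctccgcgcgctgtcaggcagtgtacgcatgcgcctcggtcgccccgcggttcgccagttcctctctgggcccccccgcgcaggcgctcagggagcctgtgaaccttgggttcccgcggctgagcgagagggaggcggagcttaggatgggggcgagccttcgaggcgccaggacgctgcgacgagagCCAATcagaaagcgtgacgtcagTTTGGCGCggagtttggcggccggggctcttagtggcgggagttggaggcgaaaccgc
Rfc3: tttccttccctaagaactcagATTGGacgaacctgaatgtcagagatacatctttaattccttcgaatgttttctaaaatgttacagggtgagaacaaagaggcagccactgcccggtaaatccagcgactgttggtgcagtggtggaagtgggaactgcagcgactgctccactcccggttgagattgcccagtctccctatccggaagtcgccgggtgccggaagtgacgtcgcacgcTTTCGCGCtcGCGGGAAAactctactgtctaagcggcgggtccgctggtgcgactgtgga
Kif11: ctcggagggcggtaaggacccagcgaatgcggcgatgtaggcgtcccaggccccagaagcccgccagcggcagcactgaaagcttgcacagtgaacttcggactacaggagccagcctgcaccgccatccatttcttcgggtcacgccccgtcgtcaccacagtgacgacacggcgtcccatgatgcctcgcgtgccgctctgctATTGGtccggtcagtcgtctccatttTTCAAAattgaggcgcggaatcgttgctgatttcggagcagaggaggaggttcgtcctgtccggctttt
Bub1b: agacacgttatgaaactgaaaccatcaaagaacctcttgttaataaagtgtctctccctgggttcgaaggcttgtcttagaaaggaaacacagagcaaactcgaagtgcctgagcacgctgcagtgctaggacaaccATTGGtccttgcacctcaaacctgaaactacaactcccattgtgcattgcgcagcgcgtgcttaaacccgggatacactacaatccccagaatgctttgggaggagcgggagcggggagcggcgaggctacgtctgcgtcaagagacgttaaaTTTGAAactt

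In these 4 windows Dtl has 1 E2F match and Rfc3 has 2, and Kif11 and Bub1b have 1 CHR match each. An E2F match was found in 7 of 17 windows (41.2%) of the called G1/S genes, in 34.0% of the windows of all measured G1/S genes and in 2.27% of all 32851 windows of the RefSeq table. A CHR match was found in 15 of 15 windows of the called G2/M genes (13 of the 16 genes had a window), in 66.7% of the windows of all measured G2/M genes and in 17.9% of all windows. Among all genes called higher with oligo 2, 9.36% of windows had an E2F match and 19.96% a CHR match. Among genes called lower the shares were 1.82% and 13.8%. These are matches to letters and no measure of binding.

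Dtl, the substrate adaptor of the CRL4 ubiquitin ligase on replicating DNA, had the smallest p of the G1/S list. It stood at 7.97, 7.89 and 7.81 with oligo 1 and at 8.81, 8.62 and 8.84 with oligo 2, on controls from 8.27 to 8.72 (0.87 ± 0.12, adjusted p = 0.000937). Rfc3, a subunit of the clamp loader, stood at 9.12, 9.17 and 9.25 against 10.06, 9.81 and 10.08 (0.81 ± 0.11, adjusted p = 0.00102). Gmnn, encoding the licensing inhibitor geminin, and Mcm4, of the replicative helicase, were 0.86 and 0.72 higher (adjusted p = 0.00193 and 0.00245). In all 4 genes oligo 1 lay below every control and oligo 2 did not lie beyond them. Mcm2, a further helicase subunit named after its value was seen, had the highest difference of the list, at 1.29 ± 0.28 (adjusted p = 0.0186). It stood at 7.90, 6.53 and 7.34 against 8.88, 8.44 and 8.32, and lost its call without oligo 1 array 3 or oligo 2 array 1 or 2 (0.0574 to 0.0922).

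For G2/M, Tpx2, which activates Aurora A on the spindle, stood at 8.40, 8.38 and 8.16 with oligo 1 and at 9.29, 9.42 and 9.36 with oligo 2, on controls from 9.22 to 9.54 (1.04 ± 0.12, 2.06-fold, adjusted p = 0.000499). Kif11, the kinesin that separates the spindle poles, stood at 9.37, 9.64 and 9.44 against 10.12, 10.46 and 10.33 (0.82 ± 0.15, adjusted p = 0.00516). Bub1b, of the spindle checkpoint, stood at 8.56, 8.54 and 8.55 against 9.36, 9.20 and 9.09 (0.67 ± 0.12, adjusted p = 0.00549). Ttk, the checkpoint kinase MPS1, was 0.72 higher (adjusted p = 0.00875), a call lost without oligo 2 array 3 (0.0509). The list of G1 cyclins and CDK inhibitors also holds CDKs, the Rb1 family and factors of the Myc and Mxd network. Of its 23 measured genes, 4 were higher and 0 lower (4 and 2 unadjusted), with 1 lower under the replicate block. The called share was 17.4%, against 3.67% of all genes. The 4 were Cdkn2c (0.94, adjusted p = 0.00182), Cdkn2d (0.73, 0.00386), Rbl1, a pocket protein that binds E2F (0.65, 0.00392), and Cdk6 (0.59, 0.0409). Cdk6 lost its call without Mock array 1, sirEGFP array 3, oligo 1 array 1 or 2 or any oligo 2 array (0.055 to 0.139). For Cdkn2c, unlike the genes above, oligo 1 stood at 8.43, 8.80 and 8.38 and oligo 2 at 9.44, 9.65 and 9.33, while the controls themselves spread from 8.23 to 8.47 with sirEGFP and from 9.15 to 9.48 in Mock.

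**Figure D4:**
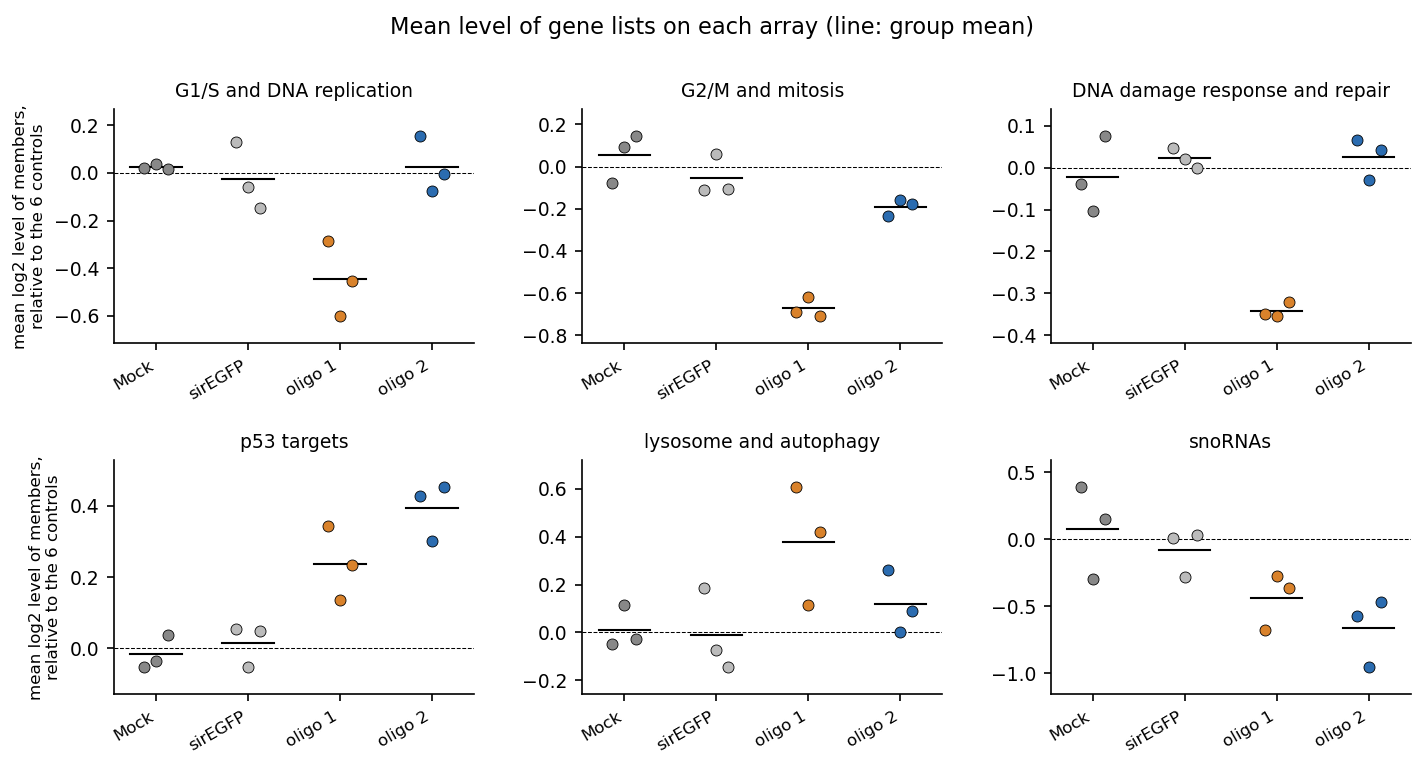
Points give the mean log2 level of the measured members of 6 lists on each array, relative to the mean of the 6 control arrays, and lines give group means. The G1/S, G2/M and DNA damage lists are low with oligo 1, at -0.29 to -0.71, while oligo 2 lies near the controls for G1/S and DNA damage and between for G2/M. The p53, lysosome and snoRNA panels show lists in which both siRNAs lie on the same side of the controls on average.

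Part of the list of DNA damage response and repair was also higher with oligo 2. Of 46 measured, 16 were higher with oligo 2 and 0 lower (25 and 1 unadjusted), with a median difference of 0.36. The called share was 34.8%, against 3.67% of all genes. Oligo 1 lay below all controls in 18 and oligo 2 in 3, against 3.22% and 3.85% of all genes. The mean of the list relative to the controls was -0.35, -0.35 and -0.32 with oligo 1 and 0.067, -0.030 and 0.043 with oligo 2. Exo1, a nuclease of mismatch and end repair, stood at 7.45, 7.08 and 7.39 against 8.51, 8.25 and 8.33 (1.06 ± 0.13, adjusted p = 0.00056). Topbp1, which activates ATR, was 0.83 higher, Chek1, the checkpoint kinase, 0.87 and Bard1, the partner of BRCA1, 0.89 (adjusted p = 0.000808, 0.00112 and 0.00122). All 4 were below every control with oligo 1. The count fell to 9 without oligo 1 array 3, to 9 without oligo 2 array 1, to 10 without oligo 2 array 2 and to 8 without oligo 2 array 3. Members not called included Atr, Rad50, Xrcc1 and Xrcc5, with differences of 0.025, 0.016, 0.0025 and 0.043. An E2F match was found in 26.7% of the windows of called members, 22.7% of those of all measured members and 2.27% of all windows. Whether this difference stands apart from that of the cell cycle lists was not tested.

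Of 35 measured p53 targets, 6 were higher with oligo 2 and 1 lower (8 and 1 unadjusted), and the median difference was 0.075. Relative to sirEGFP the median was 0.22 with oligo 1 and 0.40 with oligo 2, and the arrays lay above all controls in 7 and 16 genes, against 4.4% and 6.52% of all genes. Fas, the death receptor, stood at 6.247, 5.601 and 5.953 with oligo 1, where the controls reached 5.86, and at 7.32, 6.94 and 7.38 with oligo 2 (1.28 ± 0.19, adjusted p = 0.00145). Trp53inp1, a nuclear p53 cofactor, stood at 6.94, 7.13 and 6.79 against 7.66, 7.77 and 8.22 (0.93 ± 0.16, adjusted p = 0.00432). Ei24 was 0.86 higher (0.00271) and Sesn1, of the sestrins, 0.69 (0.0112), a call that ended without oligo 2 array 1 (0.053). Also called higher were Btg2, given below, and Ckap2 (0.63, 0.0114), the latter named after its value was seen. Ckap2 lost its call without oligo 1 array 3 or oligo 2 array 3 (0.0567 to 0.0612). The 1 gene lower with oligo 2, named after its value was seen, was Ddb2, of nucleotide excision repair. It was above the controls with oligo 1 (-0.72, adjusted p = 0.0129) and lost its call without oligo 1 array 3 or oligo 2 array 2 (0.0528 to 0.0655). The count of 6 fell to 4 without oligo 2 array 1 and to 4 without oligo 2 array 3. Targets not called included Mdm2, Ccng1, Bbc3, Pmaip1 and Phlda3, with differences of -0.14, 0.075, -0.19, -0.21 and 0.10 (limma adjusted p = 0.807, 0.865, 0.661, 0.584 and 0.913). Cdkn1a and Bax were not among the measured members.

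Replication-dependent histone genes, of which 24 were measured, gave 2 higher and 1 lower (5 and 2 unadjusted), or 12.5% against 3.67% of all genes. Oligo 1 lay below the controls in 10 and above them in 3, and oligo 2 in 2 and 1. Over all genes these shares were 3.22% and 4.4% with oligo 1 and 3.85% and 6.52% with oligo 2. H4c4 stood at 8.18, 8.39 and 8.38 with oligo 1 and at 9.44, 9.25 and 8.98 with oligo 2 (0.91 ± 0.18, adjusted p = 0.0113), a call lost without oligo 2 array 1 (0.0564). H4c6 was 0.68 higher (0.0326), lost without oligo 1 array 1 or 2 or oligo 2 array 1 or 2 (0.0658 to 0.142). H2bc4 went the other way, at 7.72, 7.68 and 7.26 with oligo 1 and 6.58, 6.18 and 6.67 with oligo 2, both above controls of 5.001 to 5.801 (-1.08 ± 0.23, adjusted p = 0.0157, lost without oligo 2 array 2 at 0.0853). Histone genes have near-identical copies, so probe sets may read more than 1 of them. Among 10 replication-independent histones, H2az2 (0.97, adjusted p = 0.00155) and Macroh2a1 (1.09, 0.0176) were higher and 0 were lower (5 and 0 unadjusted). The call of Macroh2a1 was lost without oligo 1 array 3 or oligo 2 array 1 or 3 (0.0578 to 0.0832).

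Of 23 genes of the Pol I machinery that UBF serves, Ubtf included, 1 was called higher and 0 lower (4 and 2 unadjusted), or 4.35% against 3.67% of all genes. That gene was Znrd1, a small Pol I subunit, which was 0.42 higher (adjusted p = 0.0414) and lost its call without any 1 array other than sirEGFP array 1 (0.0507 to 0.138). Of 25 genes of Pol III and its factors, Polr3c alone was called, at -0.71 (adjusted p = 0.0403). Polr3c lost its call without any Mock array, sirEGFP array 2, oligo 1 array 1 or 3, or oligo 2 array 2 or 3 (0.0502 to 0.178). Among 74 ribosome biogenesis factors 1 was higher and 1 lower (3 and 4 unadjusted), or 2.70% against 3.67% of all genes. With the replicate block 2 were higher. Wdr36 was the added one (0.45, adjusted p = 0.118, and 0.0308 with the block). Utp14a, of the small-subunit processome, was lower by -0.66 (0.00724), and Utp15 was 0.45 higher (0.0383), with a call lost without sirEGFP array 2 or 3 or any of the 6 UBF siRNA arrays (0.0529 to 0.182).

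Of 56 cytosolic ribosomal protein genes, 0 were higher and Rpl12 was lower, at 7.46, 7.40 and 7.47 with oligo 1 and 6.753, 6.407 and 6.997 with oligo 2 (-0.73 ± 0.17, adjusted p = 0.0252). Its call was lost without oligo 1 array 1 or 3 or oligo 2 array 1 or 2 (0.0588 to 0.123). Ribosomal protein genes have many processed copies in the genome, and probe sets can read these too. Oligo 2 lay below all controls in 15 of the 56 and oligo 1 in 2, against 3.85% and 3.22% of all genes, while 45 of the 56 differences were below 0 and their median was -0.076. Of 40 translation factors 3 were higher and 0 lower (4 and 1 unadjusted). Eif5b, which joins the ribosomal subunits, was 0.93 higher (adjusted p = 0.00155). Etf1 and Eif5 were 0.55 and 0.50 higher (0.0265 and 0.0473). The call of Etf1 was lost without oligo 1 array 1 or 3 or any oligo 2 array (0.0589 to 0.104). That of Eif5 was lost without any Mock array, sirEGFP array 2 or 3, oligo 1 array 1 or 3, or oligo 2 array 2 or 3 (0.0545 to 0.182).

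Small nucleolar RNAs (snoRNAs), which guide the modification of ribosomal RNA, lay below the controls on average with both siRNAs, and further below with oligo 2. Limma called 0 of 51 (2 higher and 8 lower at an unadjusted p under 0.05), and the median difference was -0.25, with 43 of 51 differences below 0. Against sirEGFP the median was -0.34 with oligo 1 and -0.64 with oligo 2. There limma called 3 and 7 genes lower, against 1.43% and 0.742% of all genes. Oligo 1 lay below all controls in 7 and oligo 2 in 18, against 3.22% and 3.85% of all genes. The mean list level was -0.68, -0.28 and -0.36 with oligo 1 and -0.57, -0.95 and -0.47 with oligo 2, so the siRNAs overlapped, and the Mock arrays alone ran from -0.30 to 0.39. Snord53 stood at 9.07, 9.15 and 9.09 with oligo 1 and 8.44, 7.83 and 8.77 with oligo 2, a difference of -0.75 (adjusted p = 0.0819, and 0.0155 with the replicate block). Snord118, which acts in the maturation of 5.8S and 28S ribosomal RNA, had the opposite sign (0.80, adjusted p = 0.0569, with 0.0356 under the block and 0.0179 to 0.0427 without sirEGFP array 1 or 3 or oligo 2 array 1). With the block 1 snoRNA was called higher and 2 lower. Limma called 0 of 13 other small non-coding RNAs (1 and 1 unadjusted) and 0 of 7 snoRNA host genes (1 higher and 2 lower unadjusted).

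**Figure D5:**
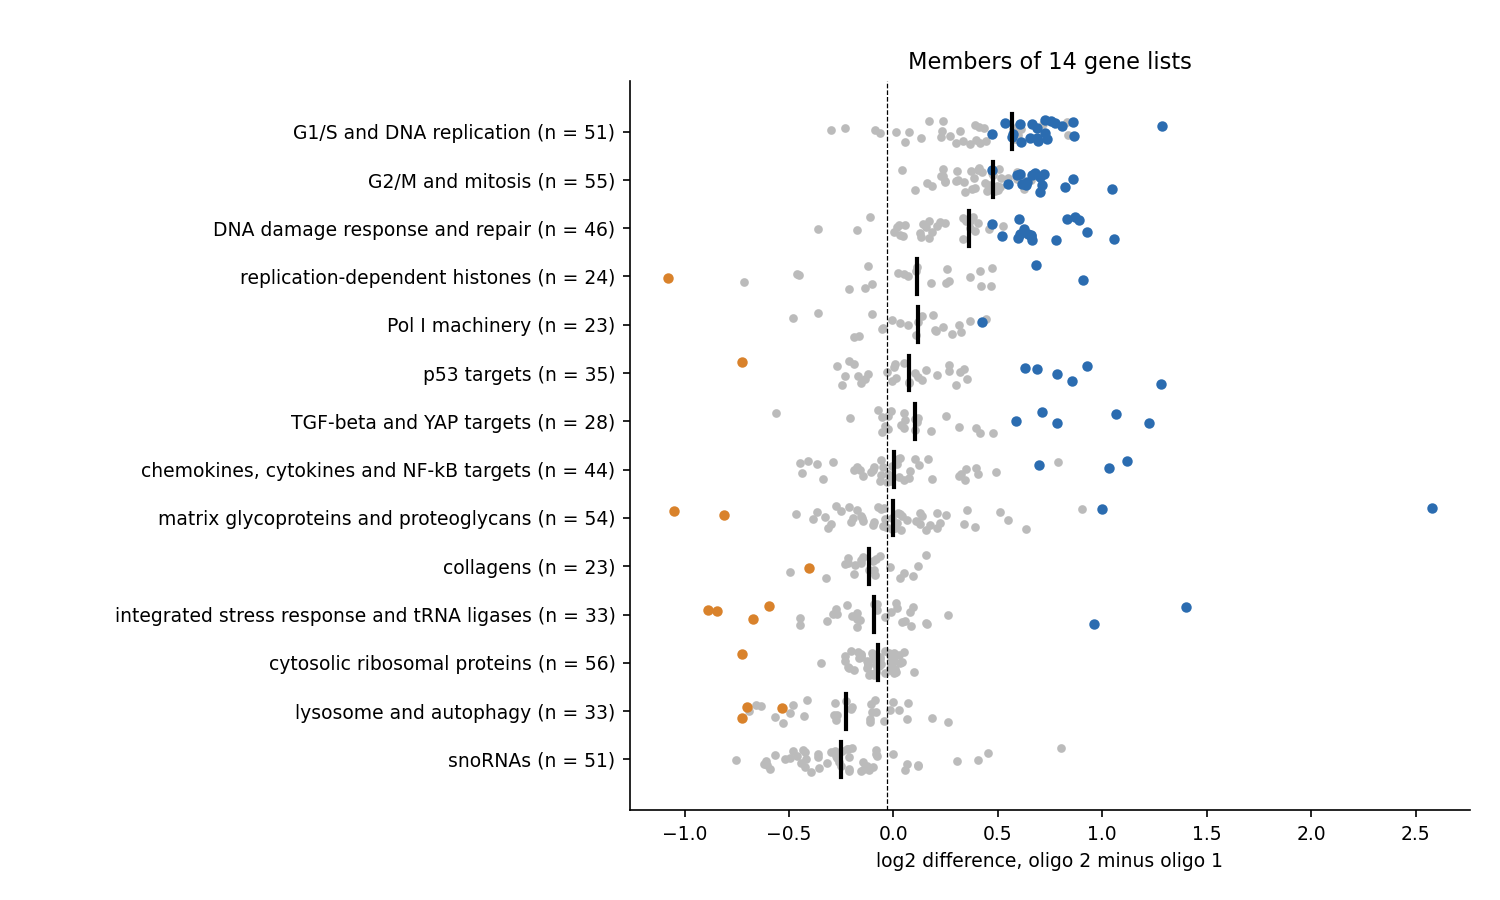
Each point is a measured member of 1 of 14 gene lists, placed by its log2 difference of oligo 2 minus oligo 1. Blue members were called higher, orange members lower and grey members not called. The black tick is the median of the list and the dashed line the median of all genes, at -0.03. The 3 lists at the top have medians of 0.57, 0.48 and 0.36, and the lysosome and snoRNA lists lie at -0.23 and -0.25.

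Of 44 chemokines, cytokines and NF-kB targets, 3 were higher with oligo 2 and 0 lower (10 and 5 unadjusted), or 6.82% against 3.67% of all genes, and the list median was 0.0046. Vcam1, an adhesion molecule for leukocytes, stood at 8.66, 8.51 and 8.39 against 9.55, 9.65 and 9.45, with controls of 8.34 to 8.61 that oligo 1 overlapped and oligo 2 did not (1.03 ± 0.12, adjusted p = 0.000444). Ccl2, the monocyte chemokine, stood at 11.37, 11.03 and 11.20 with oligo 1 and at 12.37, 12.30 and 12.28 with oligo 2 (1.12 ± 0.19, adjusted p = 0.00337). It differed from sirEGFP with both siRNAs, at 0.84 for oligo 1 (adjusted p = 0.0269) and 1.96 for oligo 2 (5.02e-05). Its neighbour in function Ccl7 was 0.70 higher (0.0326), with a call lost without oligo 1 array 2 or 3 or any oligo 2 array (0.0615 to 0.16). With the replicate block 1 member was called lower. Il6 was above all controls with both siRNAs and 0.79 higher with oligo 2 (adjusted p = 0.057, and 0.0417 with the replicate block). It passed too without Mock array 1 (0.0371) or oligo 1 array 2 (0.0173).

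Of 50 interferon-stimulated genes, 2 were higher and 0 lower (4 and 2 unadjusted), a share near that of all genes. Cxcl10 stood at 5.53, 4.74 and 5.15 against 6.43, 5.93 and 6.12 (1.02 ± 0.18, adjusted p = 0.00432), with oligo 2 above controls of 5.03 to 5.29. Tap1, the peptide transporter of antigen presentation, was 0.64 higher (0.0261, lost without oligo 1 array 2 or 3 or oligo 2 array 1 or 3, at 0.0775 to 0.127). Of 21 nucleic acid sensors and adaptors, Tlr7 and Cgas, the sensor of cytosolic DNA, were higher and 0 were lower (4 and 0 unadjusted). Cgas was below the controls with oligo 1 (0.57, 0.0111, lost without oligo 2 array 3 at 0.0578). Of 17 genes of small RNA silencing, limma called 0 (2 and 0 unadjusted). Dgcr8, of the Microprocessor, was nearest, with a difference of 0.54 (adjusted p = 0.051, with 0.0136 under the block, 0.0319 without sirEGFP array 1 and 0.0373 without oligo 1 array 1).

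Several of the genes that differed most, such as Cd53, Tlr7, Cd80, Havcr2 and Lyz2, are known from myeloid cells, so the macrophage list was read as a whole. Of 16 measured markers 0 were higher and 2 were lower with oligo 2 (1 and 2 unadjusted), namely Lyz2 and Csf1r, the receptor of the growth factor CSF1. Csf1r stood at 5.90, 5.71 and 5.56 with oligo 1 and at 5.08, 4.89 and 4.82 with oligo 2, on controls from 4.59 to 5.16 (-0.80 ± 0.15, adjusted p = 0.00807). The mean level of the list relative to the controls was 0.12 to 0.16 on the oligo 1 arrays, -0.091 to 0.028 on the oligo 2 arrays and -0.11 to 0.099 on the control arrays. Among markers not called, Ptprc, Adgre1, Itgam and Tyrobp differed by -0.011, -0.17, -0.19 and -0.078 (adjusted p = 0.988, 0.575, 0.687 and 0.842). Cd68 differed by 0.58 (0.326, and 0.0293 with the replicate block). Cd53, Tlr7 and Cd80 were higher with oligo 2, while the mean of the macrophage list lay within the range of the controls. With oligo 1 that mean lay above the controls. The part of such cells was not tested.

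Matrix genes were called in both directions. Of 54 matrix glycoproteins and proteoglycans, 2 were higher and 2 lower (8 and 5 unadjusted), or 7.41% against 3.67% of all genes. With the replicate block 4 were higher. Beside Tnc, Bgn, the proteoglycan biglycan, stood at 10.57, 9.72 and 10.54 with oligo 1 and at 11.32, 11.24 and 11.26 with oligo 2 (1.00 ± 0.19, adjusted p = 0.0096). Mfap5, of microfibrils, was on opposite sides of the controls, at 8.60, 8.40 and 8.58 against 7.62, 7.21 and 7.59 (-1.05 ± 0.13, adjusted p = 0.000581). Ogn, osteoglycin, was above the controls with oligo 1 (-0.81, 0.0118, lost without oligo 1 array 3 or oligo 2 array 1 or 2, at 0.0512 to 0.0605). Of 23 collagens 0 were higher and 1 lower (0 and 3 unadjusted), or 2 lower with the block. Col4a5 differed by -0.40 (0.0453) and lost its call without any 1 array other than sirEGFP array 1 (0.0526 to 0.168), and Col5a2 by -0.49 (0.0677, with 0.0375 under the block, 0.0273 without Mock array 2 and 0.0471 without Mock array 3).

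Of 32 matrix remodelling enzymes and inhibitors, 1 was higher and 2 lower (3 and 5 unadjusted), or 2 higher with the block, where Timp3, an inhibitor of metalloproteinases, passed (0.49, adjusted p = 0.104, and 0.0274 with the block). Plau, urokinase, was 0.84 higher (0.0236), and Loxl4 and Lox, which cross-link collagen, differed by -0.73 and -0.50 (0.0205 and 0.0289). Plau and Loxl4 lost their calls without oligo 1 array 2 or 3 or oligo 2 array 1 or 3 (0.0577 to 0.112), and Lox without oligo 1 array 1 or any oligo 2 array (0.0605 to 0.112).

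The list named TGF-beta and YAP targets also holds ligands, receptors and other factors of these pathways. Of its 28 measured genes, 5 were higher with oligo 2 and 0 lower (8 and 1 unadjusted), or 17.9% against 3.67% of all genes. The median was 0.10, and 1 was lower with the block. The targets Ccn1, Ccn2, Ankrd1, Amotl2 and Smad7 were not called (limma adjusted p = 0.108 to 0.970). Id2 and Id1, inhibitors of bHLH factors, differed most. Id2 stood at 8.32, 8.63 and 8.46 against 9.49, 9.61 and 9.99 (1.22 ± 0.19, adjusted p = 0.00215). Id1 stood at 7.64, 6.76 and 7.37 against 8.44, 7.99 and 8.54 (1.07 ± 0.20, 0.00713). Tgfbr1, the type I receptor, and Ltbp2, a latent TGF-beta binding protein, were 0.78 and 0.71 higher (0.00685 and 0.00875). The 5th, Skil, a repressor of SMAD factors named after its value was seen, was 0.59 higher (0.0258, lost without oligo 1 array 2 or 3 or oligo 2 array 2 or 3, at 0.0521 to 0.132). Limma called 0 of 24 contractile genes of smooth muscle and myofibroblasts (1 and 2 unadjusted). Acta2, smooth muscle actin, had a difference of -0.90 (adjusted p = 0.207), which became -1.35 and passed without oligo 1 array 2 (0.0115). Actn1, an actinin, had a difference of 0.54 (0.121) and passed without oligo 1 array 1 (0.0456).

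Of 48 growth factors and receptors, 4 were higher and 0 lower (10 and 5 unadjusted), and with the block 7 and 2. Pdgfrb stood at 7.28, 5.79 and 6.68 with oligo 1 and at 8.36, 7.52 and 7.86 with oligo 2 (1.33 ± 0.34, adjusted p = 0.0418), with oligo 1 array 2 far below the others of its group. Pdgfra, the other receptor of PDGF, was 0.81 higher (0.016), Met, the receptor of HGF, 0.57 (0.0184) and Nrg1, a ligand of ERBB receptors, 0.53 (0.0139). Each of these calls was lost without some 1 array. For Pdgfrb it was any Mock array, sirEGFP array 2, oligo 1 array 2 or 3 or any oligo 2 array (0.0537 to 0.172). For Pdgfra it was oligo 2 array 1 or 3 (0.0697 to 0.0769). For Met it was oligo 1 array 1 or 3 or oligo 2 array 2 or 3 (0.0675 to 0.0851), and for Nrg1 oligo 1 array 3 or oligo 2 array 2 or 3 (0.0641 to 0.0762).

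Of 28 adhesion receptors, 3 were higher and 2 lower (5 and 4 unadjusted), with 5 higher under the block. Nrp1, a coreceptor of VEGF and semaphorins, stood at 8.98, 9.10 and 9.08 against 9.71, 10.01 and 9.91 (0.82 ± 0.13, adjusted p = 0.00221). Itgb8, an integrin that frees TGF-beta, was 0.99 higher (0.00647). Cdh2, N-cadherin, and Itga6 differed by -0.65 and -0.61 (0.0155 and 0.0337). The call of Cdh2 was lost without oligo 1 array 1 or 3 or oligo 2 array 1 (0.0521 to 0.0777) and that of Itga6 without oligo 1 array 1 or 3 or any oligo 2 array (0.0662 to 0.144). Ncam1, named after its value was seen, was 0.54 higher (0.0384), a call lost without Mock array 3, sirEGFP array 3, oligo 1 array 2 or 3 or any oligo 2 array (0.0524 to 0.156). Of 16 fibroblast markers, 3 were higher and 1 lower (4 and 1 unadjusted), with Pdgfra and Pdgfrb, given above, among the higher ones. Prrx1, a mesenchymal homeobox factor, was the other, at 10.89, 10.62 and 10.66 with oligo 2 against 10.17, 9.84 and 9.82 (0.78 ± 0.13, adjusted p = 0.00402). Thy1 was lower (-0.67, 0.0305, lost without oligo 1 array 1 or 3 or oligo 2 array 2 or 3, at 0.0816 to 0.151).

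Stress and metabolic lists held calls of both signs. Of 33 genes of the integrated stress response and tRNA ligases, 2 were higher with oligo 2 and 4 lower (3 and 5 unadjusted). Cebpg, a bZIP partner of ATF4, was low with oligo 1 at 8.06, 8.63 and 8.15 against 9.13, 9.32 and 9.27 (0.96 ± 0.15, adjusted p = 0.00201), and Slc7a11 is given above. Nars, asparaginyl-tRNA ligase, stood at 10.92, 10.69 and 10.90 against 10.13, 9.98 and 9.87 (-0.84 ± 0.13, 0.00217). Ddit3, the factor CHOP, stood at 8.57, 8.60 and 8.61 against 7.95, 7.88 and 7.93 (-0.67 ± 0.13, 0.0104). Chac1, which degrades glutathione, and Cars, cysteinyl-tRNA ligase, both named after their values were seen, differed by -0.89 (0.0132) and -0.60 (0.0436). Chac1 lost its call without oligo 2 array 2 (0.0746). The count of 4 fell to 2 without oligo 2 array 2. Cars lost its call without Mock array 3, sirEGFP array 2 or 3, oligo 1 array 1 or 3 or any oligo 2 array (0.0538 to 0.199). Limma called 0 of 23 chaperones of the endoplasmic reticulum (0 and 2 unadjusted). Of 19 heat shock and folding genes Cryab, alpha B crystallin, was lower, at 9.31, 8.84 and 9.21 against 8.50, 7.63 and 8.12 (-1.04 ± 0.20, 0.00829).

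Of 40 genes of glutathione metabolism and NRF2 targets, 4 were higher and 1 lower (4 and 5 unadjusted), and 4 were lower with the block. Cp, ceruloplasmin, was above the controls of 6.13 to 6.58 with both siRNAs, at 7.13, 7.90 and 7.43 with oligo 1 and 8.32, 8.27 and 8.73 with oligo 2 (0.95 ± 0.18, adjusted p = 0.00816, lost without oligo 2 array 3 at 0.053). Nfe2l2, which encodes NRF2 itself, was 0.45 higher (0.0326) and Txnip, the thioredoxin inhibitor named after its value was seen, 0.78 (0.0383). Nfe2l2 lost its call without oligo 1 array 2 or 3 or any oligo 2 array (0.0782 to 0.121), and Txnip without oligo 1 array 1 or 2 or oligo 2 array 1 or 3 (0.088 to 0.178). Hmox1, a classic NRF2 target, moved against these, as given above. The called members of this list thus differed in both directions.

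Of 33 genes of lysosome and autophagy, 3 were lower with oligo 2 and 0 higher (10 and 1 unadjusted), 5 were lower with the block and 7 without oligo 1 array 2. Gabarap, an ATG8 protein of the autophagosome, stood at 11.33, 11.65 and 11.49 with oligo 1, above controls of 10.70 to 10.86, and at 10.76, 10.86 and 10.75 with oligo 2 (-0.70 ± 0.11, adjusted p = 0.00244). Map1lc3b, of the same family, stood at 10.22, 10.44 and 10.48 against 9.80, 9.62 and 9.55 (-0.72 ± 0.12, 0.0031), on opposite sides of the controls. Those controls ran from 9.818 to 10.056, so the highest oligo 2 array, at 9.799, was only just below them. Neither siRNA passed against sirEGFP for Map1lc3b (limma adjusted p = 0.11 and 0.219). Atg12, a ubiquitin-like protein of that pathway, differed by -0.53 (0.0214, lost without oligo 1 array 3 or oligo 2 array 1 or 3, at 0.0589 to 0.123). The list median was -0.23, and relative to sirEGFP it was 0.36 with oligo 1 and 0.12 with oligo 2. On single arrays the list mean ran from 0.11 to 0.61 with oligo 1 and from 0.0021 to 0.26 with oligo 2, so the siRNAs overlapped.

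Of 36 genes of glycolysis and hypoxia, Bnip3 and Pfkp, a phosphofructokinase, were lower and 0 higher (3 higher and 5 lower unadjusted). Pfkp differed by -0.64 (0.0316, lost without oligo 1 array 1 or 3 or oligo 2 array 2 or 3, at 0.0851 to 0.161). Of 30 genes of cholesterol synthesis, Hmgcs1 and Fdft1, enzymes of the pathway, were 0.50 and 0.59 higher with oligo 2 (0.0216 and 0.0248) and 0 were lower (4 and 2 unadjusted). The call of Hmgcs1 was lost without oligo 1 array 1 or any oligo 2 array (0.053 to 0.107) and that of Fdft1 without oligo 1 array 2 or 3 or any oligo 2 array (0.0508 to 0.105). Of 30 immediate early factors 2 were higher and 1 lower (4 and 3 unadjusted), or 3 lower with the block. Nr4a2, an orphan nuclear receptor, stood at 7.69, 7.45 and 7.53 against 8.69, 8.38 and 8.67 (1.03 ± 0.14, adjusted p = 0.00109). Btg2 and the phosphatase gene Dusp4 differed by 0.78 (0.0198) and -0.86 (0.0397). Btg2 lost its call without oligo 1 array 1 or oligo 2 array 1 or 3 (0.0507 to 0.113). Dusp4 lost it without any Mock array, sirEGFP array 3, oligo 1 array 1 or 3 or any oligo 2 array (0.051 to 0.144).

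The 56 markers of 4 other cell types held 2 calls, a share near that of all genes. Of 14 adipocyte markers, Fabp4, a fatty acid binding protein, was higher, at 5.90, 6.60 and 5.88 with oligo 1 and 7.64, 7.23 and 7.41 with oligo 2, on controls of 5.55 to 6.32 (1.3 ± 0.18, adjusted p = 0.00105). Pparg, the master factor of adipocytes, differed by -0.24 (0.441). Of 12 endothelial markers, Cdh5, VE-cadherin, was 0.96 higher (0.0176, lost without oligo 1 array 2 or 3 or oligo 2 array 1 or 3, at 0.0506 to 0.0914), and Kdr differed by 0.12 (0.753). Limma called 0 of 16 skeletal muscle markers (0 and 1 unadjusted) and 0 of 14 epithelial markers (0 and 2 unadjusted).

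Of 300 genes with a microRNA symbol, 4 of which are host transcripts (Mir100hg, Mir17hg, Mir670hg and Mir99ahg), 1 was called, Mir31, which was lower with oligo 2 (20 lower and 5 higher unadjusted). With the replicate block 3 were lower and 2 higher, which added Mir221 (-0.63, adjusted p = 0.0617, and 0.0436 with the block). Mir221 also passed without Mock array 2 (0.043). The microRNA precursor gives the 2 mature arms below, from RefSeq in assembly GRCm38.p6, at chr4:88910614-88910635 and chr4:88910577-88910599 on the minus strand. They are shown since the seed, in capitals (bases 2 to 8), is the part by which a microRNA picks its targets.
mmu-miR-31-5p: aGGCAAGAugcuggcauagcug
mmu-miR-31-3p: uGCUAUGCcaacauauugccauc

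Mir31 stood at 8.29, 8.43 and 8.22 with oligo 1, above controls of 7.23 to 7.86, and at 7.27, 7.09 and 7.37 with oligo 2 (-1.07 ± 0.15, 2.1-fold, adjusted p = 0.00119). The probe set was matched to the gene, so the value does not tell one arm from the other or the precursor from the mature forms. Against sirEGFP, Mir31 was 0.70 higher with oligo 1 (adjusted p = 0.0259), and with oligo 2 the difference was -0.38 (0.288).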

How the data were processed

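Expression was read on 12 arrays of NIH3T3 cells, 3 in each of 4 groups. By the series' design text the 3 are biological replicates. The authors deposited log2 values for 35512 probe sets, and the scale was read from the values. Limma is named in the submitters' processing notes, with no step. How probes were summarised and how arrays were normalized is not given in the sources used here. No value column (0) was left unused. In the platform annotation 21789 probe sets carried 1 symbol, 1621 several and 12102 none, and 21698 matched RefSeq names of GRCm38.p6 by Entrez identifier, while 91 kept their symbol. Where a gene had several (999 genes), the brightest on average was kept.

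The 19938 genes were fitted in R 4.3.3 by limma 3.58.1, using lmFit and eBayes with 1 coefficient per group, 8 residual degrees of freedom, two-sided tests and Benjamini-Hochberg adjustment. The script was tested on simulated data. Precision is limited by the 3 arrays per group, and errors are moderated SE.

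Replicate numbers come from the titles. Deviations of same-numbered oligo 1 and oligo 2 arrays from their group means correlated at 0.39, 0.29 and 0.12, so the numbers may stand for pairs. The main fit holds no block, and a fit with the numbers as a block is an alternative. Deviations of arrays with unlike numbers were not compared. Same-numbered Mock arrays correlated with the other groups at -0.24 to 0.26, and sirEGFP arrays with the UBF siRNA arrays at -0.080 to 0.55.

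Named were Ubtf, the 15 highest and 15 lowest called genes whose siRNA arrays do not overlap (predicted and clone-named genes passed over), up to 4 members of each of 41 lists with the smallest p, and the 6 largest changes on opposite sides of the controls. The comparison, rules and lists were chosen with earlier results of these data known. Other scalings, filters, probe set rules, array weights, blocks and arrays left out were tried. Promoter and microRNA sequences are RefSeq's. Of the called genes, 16 of 20 in G1/S and 13 of 16 in G2/M had a promoter window.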

Additional observations from a re-analysis of the deposited data

Results flagged for a closer look

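In 6 genes the siRNAs lay on opposite sides of all 6 control arrays, every oligo 1 array one way and every oligo 2 array the other, and limma called the difference itself. The log2 difference of oligo 2 minus oligo 1 was 1.43 for Slc44a1, 1.19 for Larp7, 1.17 for Snai2 and 1.16 for Adam17, with oligo 2 above the controls and oligo 1 below them. It was -1.29 for Lyz2 and -1.26 for Dtna, where the order was the reverse. These are the 6 largest of the 40 called genes with this placement. Among the 6, Dtna alone passed against sirEGFP with both siRNAs (limma adjusted p = 0.0158 and 0.0132). Slc44a1, Larp7 and Adam17 passed there with oligo 1 only, Snai2 with oligo 2 only, and Lyz2 with neither. All 6 stayed called without each of the 12 arrays in turn. Groups of 3 arrays were not tested for single outlying arrays.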

How the results depend on the processing

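All 732 called genes kept their direction in all 22 alternatives, and 259 of them stayed called without each array in turn. Among the 112 named genes that were called, 71 did so. In the fit of the 6 UBF siRNA arrays alone, which has fewer arrays to estimate the spread, 380 genes were called (243 higher, 137 lower), with 12 G1/S and 10 DNA damage genes higher. With array weights 3164 were called (1729 higher, 1435 lower), with 36 G1/S genes higher and 1 lower, 45 G2/M genes higher, 1 DNA damage gene lower and a DNA damage median of 0.30. Those weights rest mostly on oligo 1 array 3, at 8.92 against 0.44 and 0.42 for arrays 1 and 2. With oligo 1 arrays 1 and 2 and sirEGFP array 1 left out, those farthest along the axis of spread within groups, where oligo 1 has 1 array assumed to vary like the other groups, 211 were called (128 higher, 83 lower), with 5 G1/S, 1 G2/M and 5 DNA damage genes higher and a DNA damage median of 0.31. Leaving out 1 array gave 328 to 833 calls, 200 to 523 higher and 128 to 310 lower, 11 to 23 G1/S, 5 to 23 G2/M and 8 to 16 DNA damage genes higher, and medians of 0.45 to 0.54 for G2/M and 0.29 to 0.39 for DNA damage. Median centring gave a DNA damage median of 0.40 and 714 calls, 71.6% of them higher, and quantile normalization 766 calls, 54.8% of them higher, against 62.7% as deposited. The replicate block gave 1094 calls, 425 of them lower. It kept all 732 calls. Among the named genes it gave a call to 13 and changed no other call. In the 6 UBF siRNA arrays alone with the replicate block, a setting chosen after seeing the data, 918 genes were called, 549 higher and 369 lower. Except where the setting itself holds fewer arrays, the cause of these shifts was not tested. Signal over background cannot be judged from these values.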
